A study of Mus musculus with 2 samples.

Results

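The lysyl oxidases and lysyl hydroxylases are the enzymes that prepare and form the covalent cross-links of collagen and elastin. The 8 genes described here are Lox, Loxl1, Loxl2, Loxl3, Loxl4, Plod1, Plod2 and Plod3, taken by their gene symbols from the 37309 genes of the deposited table. Whole transcriptomes of intestinal subepithelial myofibroblasts (ISEMFs), the contractile fibroblasts that lie beneath the crypts, were sequenced from 2 cultures. The supportive ISEMFs were grown from the small intestine of 5-day-old neonatal C57BL/6 wild type mice and the non-supportive ISEMFs from 2-month-old adult mice of the same strain, and the names refer to how well each population sustained enteroids without added R-spondin. Each population is represented by 1 library, so no difference has a replicate check. Population, age of the mice, isolation and any difference in culture cannot be told apart. The names of the cultures in the deposited data end in a different P code for each population, which the sources used here do not explain, and the number of mice per culture is not given in them. Reads counted on genes numbered 50674472 in supportive ISEMFs and 49615497 in non-supportive ISEMFs. The values are reads per gene and RPKM, a read count scaled to exon length and to library size. A gene is called expressed where its RPKM reached 1 in at least 1 of the libraries. A fold difference is the ratio of the RPKM values, with a 95% exact Clopper-Pearson interval from the reads that covers counting error only.

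Lysyl hydroxylases act first, in the endoplasmic reticulum, where they hydroxylate lysines of newly made procollagen with iron as their cofactor. Lysyl oxidases are secreted copper enzymes that oxidize lysines and hydroxylysines of assembled fibers, and the reactive aldehydes so formed then condense into cross-links. The hydroxylysine-derived cross-links are the more stable ones, and tissue stiffness and fibrosis are the settings in which both families are best known. The localization columns of the deposited table, which played no part in choosing the genes, give a secretory pathway annotation by similarity for all 5 lysyl oxidases and an endoplasmic reticulum annotation for all 3 lysyl hydroxylases.

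The coding stretch around metal-binding residues of each family is shown because near-identical copies could exchange reads. The 4 lysyl oxidase-like genes carry 33 bases that encode the copper-binding stretch, and the capitals mark its 4 histidine codons, read on the coding strand of mm9.
Loxl1: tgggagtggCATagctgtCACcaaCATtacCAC
Loxl2: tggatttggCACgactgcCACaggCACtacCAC
Loxl3: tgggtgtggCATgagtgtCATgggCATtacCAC
Loxl4: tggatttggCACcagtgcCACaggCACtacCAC
In the annotation an intron divides each of these stretches into 23 and 10 bases. The Loxl1 stretch lies at chr9:58142166-58142188 and chr9:58141527-58141536 on the minus strand, in exons 3 and 4 of 7. That of Loxl2 lies at chr14:70082123-70082145 and chr14:70088835-70088844 on the plus strand, in exons 10 and 11 of 14. That of Loxl3 lies at chr6:82999989-83000011 and chr6:83000110-83000119 on the plus strand, also in exons 10 and 11 of 14. That of Loxl4 lies at chr19:42674367-42674389 and chr19:42673297-42673306 on the minus strand, in exons 11 and 12 of 15. All 4 genes have the same base at 20 of the 33 positions, and Loxl2 and Loxl4 are the closest pair with 31.

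The 3 lysyl hydroxylases carry near the end of the protein an iron-binding stretch. The capitals mark a histidine and an aspartate codon that take part in holding the iron. The codon between them, which also encodes histidine, is in lower case.
Plod1: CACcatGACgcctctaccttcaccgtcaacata
Plod2: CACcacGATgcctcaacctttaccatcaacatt
Plod3: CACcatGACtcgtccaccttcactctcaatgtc
These stretches lie at chr4:147287359-147287391 on the minus strand for Plod1, chr9:92501665-92501697 on the plus strand for Plod2 and chr5:137470866-137470898 on the plus strand for Plod3, each within the exon before the last. They are identical at 22 of 33 positions. Between the coding sequences of any pair of genes of a family, the longest exact run in common was 32 bases, between Lox and Loxl1, which is shorter than the 50-base reads. Of the 50-base windows of their protein-coding transcripts, 0 from Lox, Loxl1, Loxl4, Plod1 and Plod2 occurred in a protein-coding transcript of another gene. In Loxl2 the share was 1.28%, in Loxl3 9.79% and in Plod3 12.9%. The 68 shared windows of Loxl2 were spread over transcripts of many genes. All those of Loxl3 were shared with Htra2 and all those of Plod3 with Znhit1. The annotation places Htra2 and Znhit1 across 535 and 529 bases of the exons of Loxl3 and Plod3, on the opposite strand. The library kit does not mark strand, so reads from such an overlap cannot be assigned to one of the genes. The shared runs and windows count exact matches only, while the alignment allowed 2 mismatches per read, so near-matches were not tested. Noncoding transcripts, pseudogenes and the rest of the genome were not searched.

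All 8 genes were expressed in both libraries at an RPKM above 1, with at least 541 reads each. Lox, on chromosome 18, the founding lysyl oxidase and the main cross-linking enzyme of fibrillar collagen and elastin, had the highest level in both. It had 58416 reads (RPKM 152.9) in supportive ISEMFs, against 56622 reads (RPKM 152.5) in non-supportive ISEMFs. Among 22379 protein-coding genes these levels ranked 91 and 96. The ratio of supportive over non-supportive was 1.003 (95% interval, 0.991 to 1.01), a log2 ratio of 0.0038. The other scalings of the libraries that were tried put the log2 ratio between 0.045, from size factors equal in both libraries, and 0.12. These values are farther from 0 than the counting interval reaches. The scaling and not the depth thus sets whether a small difference in Lox is seen. Fewer cells of a type and less RNA per cell cannot be told apart in libraries of whole cultures, here and in what follows.

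**Figure D1:**
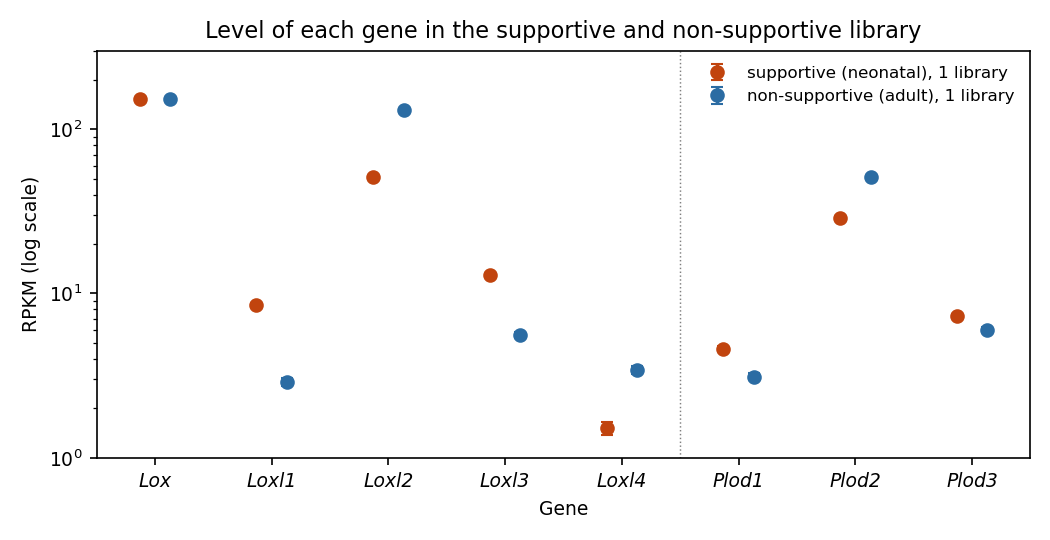
RPKM of the 8 genes (log axis) in the library of supportive and of non-supportive ISEMFs, with exact Poisson 95% intervals of the reads as bars, mostly smaller than the points. The points of Lox coincide near 153, while those of Loxl2 are apart at 51.1 and 132, with the non-supportive library higher.

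Loxl2 showed the largest difference toward non-supportive ISEMFs. It encodes a lysyl oxidase with scavenger receptor domains that is known for cross-linking collagen IV of basement membranes. Loxl2 had 21029 reads (RPKM 51.1) in supportive ISEMFs and 52569 reads (RPKM 131.5) in non-supportive ISEMFs. It was 2.57-fold lower in supportive ISEMFs (95% interval, 2.53 to 2.61), a log2 ratio of -1.36. Its rank among protein-coding genes was 356 in supportive and 115 in non-supportive ISEMFs. Loxl4, which carries the same scavenger receptor domains and the copper-binding stretch closest to that of Loxl2, was the least expressed of the 8 genes in supportive ISEMFs. It had 541 reads (RPKM 1.51) there, against 1191 reads (RPKM 3.42) in non-supportive ISEMFs. It was 2.27-fold lower in supportive ISEMFs (95% interval, 2.04 to 2.51).

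Loxl1 and Loxl3 differed in the other direction. Loxl1, known for its role in elastic fibers, had 4123 reads (RPKM 8.49) in supportive ISEMFs and 1366 reads (RPKM 2.89) in non-supportive ISEMFs. It was 2.93-fold higher in supportive ISEMFs (95% interval, 2.76 to 3.12), a log2 ratio of 1.52 and the largest of the 8 genes. Loxl3, needed for normal development of the palate and skeleton, had 4577 reads (RPKM 13.03) in supportive ISEMFs and 1914 reads (RPKM 5.60) in non-supportive ISEMFs. It was 2.32-fold higher (95% interval, 2.20 to 2.45). Htra2, which overlaps it, had 567 and 496 reads in the same libraries. Loxl3 also shares the scavenger receptor domains of Loxl2 and Loxl4, so these 3 genes did not differ in the same direction.

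The lysyl hydroxylases differed less. Plod2, the enzyme of the telopeptide lysines of collagen, was the most expressed of the 3. It had 12078 reads (RPKM 29.0) in supportive ISEMFs and 20801 reads (RPKM 51.4) in non-supportive ISEMFs. It was 1.77-fold lower in supportive ISEMFs (95% interval, 1.73 to 1.81), a log2 ratio of -0.82. Plod1, which acts on lysines of the collagen helix, had 2657 reads (RPKM 4.63) in supportive and 1740 reads (RPKM 3.12) in non-supportive ISEMFs, 1.48-fold higher in supportive ISEMFs (95% interval, 1.40 to 1.58). Plod3, which also has glycosyltransferase activity on collagen, had 3452 reads (RPKM 7.29) against 2773 reads (RPKM 6.03). Its ratio of 1.21 had a 95% interval from 1.15 to 1.27, and Znhit1, which overlaps it, had 786 and 761 reads. Plod2 thus lay on the other side of equality from Plod1 and Plod3, with intervals that do not overlap theirs. The counts are per gene and do not separate the splice forms, of which the annotation lists 2 protein-coding ones for Plod2.

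A difference of at least 2-fold in RPKM, after 0.1 was added to each value, was found for 4 of the 8 genes, 2 higher and 2 lower in supportive ISEMFs. Over the 9110 expressed protein-coding genes, 18.2% differed by as much, 9.25% higher and 8.98% lower. All 4 were lysyl oxidases (4 of 5), and 0 of the 3 lysyl hydroxylases reached 2-fold. The median absolute log2 ratio was 0.98 over the 8 genes, against 0.41 over all 9110. The signed median was 0.14, against -0.07 over all 9110, so the 8 genes spread to both sides. Loxl4 was the gene with the lowest level among the 4, and with 1 added to each RPKM in place of 0.1 its log2 ratio was -0.82, short of 2-fold.

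**Figure D2:**
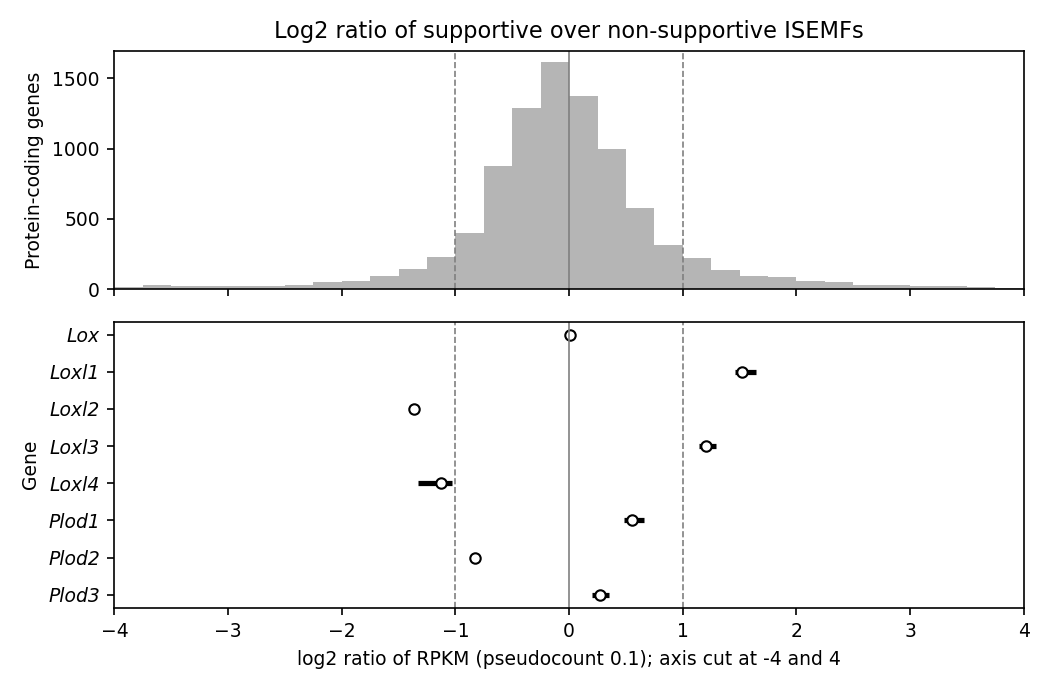
Log2 ratio of RPKM, supportive over non-supportive, with a pseudocount of 0.1. The upper panel counts the expressed protein-coding genes in bins of 0.25, of which 135 lie outside the range drawn, and the lower panel gives the 8 genes as points, with bars for the 95% counting interval of the ratio without the pseudocount. Dashed lines mark 2-fold, and Loxl1 and Loxl3 lie to the right of them, Loxl2 and Loxl4 to the left.

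The make-up of the lysyl oxidase family differed between the libraries while the level of Lox was nearly the same. The RPKM of the 5 genes summed to 227 in supportive and 296 in non-supportive ISEMFs. Lox made 67.3% of the sum in supportive and 51.5% in non-supportive ISEMFs. Loxl2 made 22.5% and 44.4%, so that Lox stood 2.99-fold above Loxl2 in supportive ISEMFs and 1.16-fold above it in non-supportive ISEMFs. Loxl3 made 5.74% and 1.89%, Loxl1 3.74% and 0.978%, and Loxl4 0.666% and 1.16%. The summed RPKM of the 3 lysyl hydroxylases was 40.9 in supportive and 60.5 in non-supportive ISEMFs. Plod2 made 70.9% and 84.9% of it, Plod3 17.8% and 9.96%, and Plod1 11.3% and 5.15%. The ratio of Plod2 to Plod1 was 6.27 in supportive and 16.5 in non-supportive ISEMFs.

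**Figure D3:**
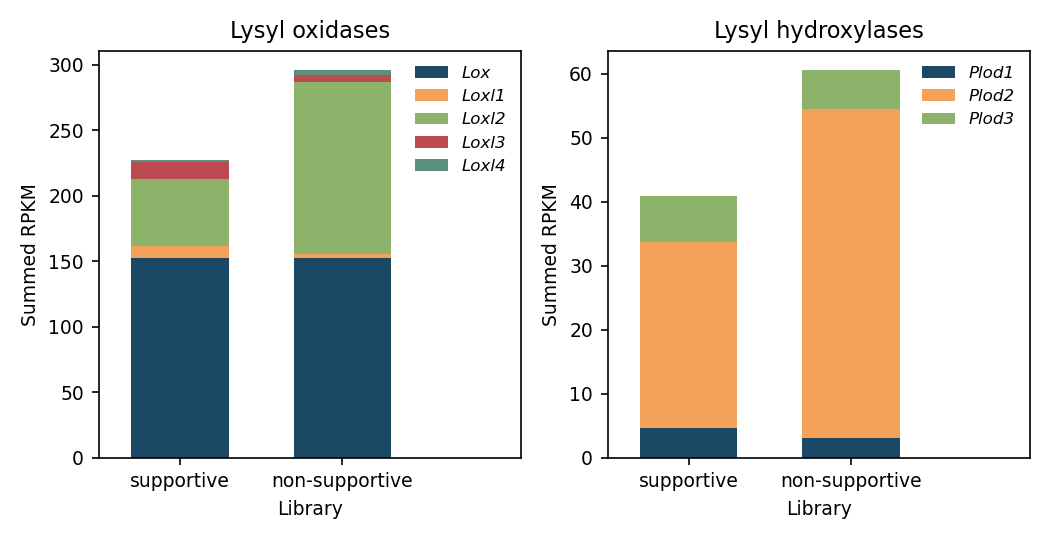
Summed RPKM of the lysyl oxidases (left) and lysyl hydroxylases (right) in each library, with 1 color per gene. The block of Lox has nearly the same height in both bars, at 152.9 and 152.5, and the non-supportive bars are taller by the blocks of Loxl2 and Plod2.

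In the supportive library the order from high to low was Lox, Loxl2, Plod2, Loxl3, Loxl1, Plod3, Plod1 and Loxl4, and neighbors were separated by more than their counting intervals. In the non-supportive library the order was Lox, Loxl2, Plod2, Plod3, Loxl3, Loxl4, Plod1 and Loxl1, in which Plod3 and Loxl3, Loxl4 and Plod1, and Plod1 and Loxl1 overlapped in their intervals. Levels between genes depend on the exon length that divides the reads, and the deposited lengths, such as 6795 bases for Loxl1 and 8038 for Plod1, exceed the longest annotated protein-coding transcripts of 3338 and 3243 bases. With those transcript lengths, Loxl1 was at a level of 17.3 and Loxl3 at 15.6 in supportive ISEMFs, the reverse of their order by the deposited length. In non-supportive ISEMFs Loxl1 was then at 5.89, above Loxl4 at 4.59. The share of Loxl1 in its family was then 6.29% and 1.70%, and the ratio of Plod2 to Plod1 was 4.02 and 10.6 in supportive and non-supportive ISEMFs. Lox stayed first and Loxl2 second among the lysyl oxidases, and Plod2 first among the lysyl hydroxylases. The ratio between the libraries for a gene does not depend on this length.

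The substrates were examined as a list of 14 genes for fibrillar collagens, collagen IV and elastin. Of these, 8 were expressed, and 3 of the 8 were at least 2-fold higher in supportive ISEMFs and 0 lower, against 9.25% higher and 8.98% lower over all expressed protein-coding genes. Col3a1, a chain of collagen III, had an RPKM of 272 against 26.4, Col1a2, a chain of collagen I, had 286 against 41.6, and Col11a1 had 18.4 against 3.56. Col1a1, the partner chain of Col1a2, was at 317 and 288. The collagen IV genes were close to level, at 105 and 95.3 for Col4a1 and at 49.8 and 42.3 for Col4a2. Col24a1 had 5 reads in supportive and 157 in non-supportive ISEMFs, below an RPKM of 1 in both. Eln, the gene of elastin, had 1 and 4 reads, so elastin transcripts were near the limit of detection in both libraries. The median log2 ratio of the 8 expressed substrate genes was 0.53. The RPKM of the 11 fibrillar collagen genes summed to 976 in supportive and 425 in non-supportive ISEMFs, with Col1a1, Col1a2 and Col3a1 as the main terms in the supportive one. Per unit of that sum, lysyl oxidases stood at 0.233 and 0.696, and lysyl hydroxylases at 0.0419 and 0.142. These ratios of sums rest mainly on Lox, Loxl2 and Plod2 and on the difference in Col1a2 and Col3a1. The fibrillar collagen sum was itself 2.30-fold higher in supportive ISEMFs. Beside it, Loxl1 was 2.93-fold higher, and Loxl3 2.32-fold higher with an interval (2.20 to 2.45) that spans 2.30. Unlike the ratio of a gene between the libraries, a ratio of sums depends on the deposited exon lengths, such as 16097 bases for Col1a2. Other lengths were not tried for the collagens, so the place of Loxl1 and Loxl3 relative to the sum is not settled.

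Collagen processing enzymes and chaperones were a list of 22 genes, of which 19 were expressed. Of these, 3 were at least 2-fold higher and 1 lower in supportive ISEMFs, or 21.1%, close to the 18.2% of all genes. Their median log2 ratio was -0.02. Tll1, a protease of the Bmp1 family that can release the Lox propeptide, had 1243 reads (RPKM 3.53) in supportive ISEMFs against 41628 reads (RPKM 121.6), 34.5-fold lower (95% interval, 32.6 to 36.5). Bmp1, the main enzyme of that cleavage, was at 8.91 and 12.3. Adamts2, which removes the procollagen N-propeptide, was at 16.8 in supportive and 1.53 in non-supportive ISEMFs, and Pcolce, an enhancer of Bmp1, at 22.7 and 7.69. Leprel2, a prolyl 3-hydroxylase family gene, was at 3.91 and 1.39. The prolyl 4-hydroxylase genes, which act beside the lysyl hydroxylases in the endoplasmic reticulum, all stayed under 2-fold. P4ha1 was at 33.1 and 33.6 and P4hb at 149 and 128.

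Of 9 genes for lysyl oxidase partners and copper supply, all were expressed. At least a 2-fold difference was found for 4, of which 3 were higher and 1 was lower in supportive ISEMFs, beside 18.2% of all expressed protein-coding genes, and the median log2 ratio of the 9 was 0.29. Fbln5, whose protein fibulin-5 binds Loxl1 and tropoelastin, was at an RPKM of 141 in supportive and 3.59 in non-supportive ISEMFs, 39.3-fold higher (95% interval, 37.3 to 41.4). Fmod, a collagen-binding proteoglycan, had 824 reads and 5 reads. Postn was at 85.1 and 41.6. Atp7a, the pump that loads copper into secreted enzymes, was 2.72-fold lower in supportive ISEMFs (95% interval, 2.59 to 2.86), at 3.13 and 8.50. The copper importer Slc31a1 was at 13.4 and 13.9 and the copper chaperone Atox1 at 12.1 and 12.6. Efemp2, which encodes the Lox-binding fibulin-4, was at 13.2 and 11.7.

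**Figure D4:**
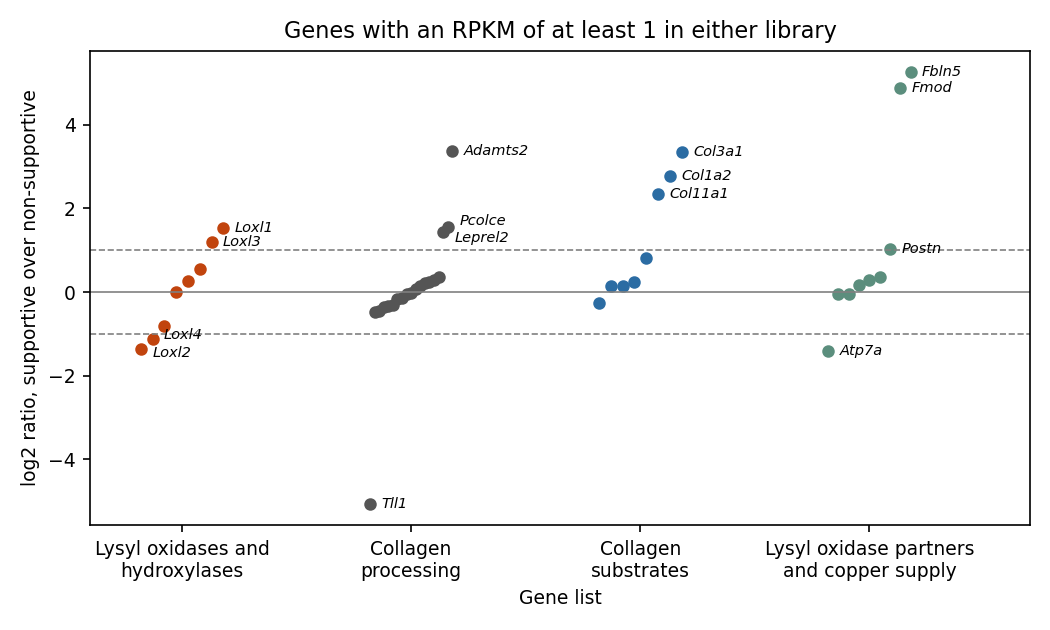
Log2 ratio, supportive over non-supportive, of every expressed gene in the family and in 3 related gene lists, with 1 point per gene and dashed lines at 2-fold. Loxl1 and Loxl3 lie above and Loxl2 and Loxl4 below the lines, while Tll1 at -5.07 and Fbln5 at 5.26 are the outermost points.

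The libraries expressed Acta2 and Vim, markers of their labelled cell type, at 908 and 1410.1 and at 325 and 407 in supportive and non-supportive ISEMFs. Des, which the authors describe as low in both populations, was at 0.575 and 3.40. Some markers of other cells were lower in supportive ISEMFs, as were Loxl2, Loxl4 and Plod2, and others were not. Of 9 immune markers, 6 were expressed and all 6 were at least 2-fold lower in supportive ISEMFs, beside 8.98% of all expressed protein-coding genes. Of the 6, only Lyz2 reached an RPKM of 1 in supportive ISEMFs. Ptprc, Tyrobp, Fcer1g, Emr1 and Cd68 passed the filter only through the non-supportive library, so their direction was largely fixed by it. The summed RPKM over the 9 was 6.86 and 121, of which Lyz2 alone made 6.31 and 72.7. In supportive ISEMFs 5 of the 9 had 0 reads, among them Cd3e and Cd79a, with 3 and 1 reads in non-supportive ISEMFs. Of 5 smooth muscle markers 3 were at least 2-fold lower, beside the same 8.98% of all expressed protein-coding genes. These were Myh11 at 26.3 and 108, Cnn1 at 78.6 and 187, and Des, whose values are given above. Des passed the filter only through the non-supportive library. Actg2 was at 247 and 292, and Smtn went the other way, at 4.88 and 3.16. The sums over the 5 were 357 and 593. The immune markers with the largest log2 ratios were Tyrobp with 0 reads against 1174, Fcer1g with 3 against 387, Emr1 with 0 against 622 and Ptprc with 0 against 879. Of 5 epithelial markers 1 was expressed, Krt20, at 0.0799 and 3.13. Among the others, Cdh1 went the other way, with 159 reads in supportive and 18 in non-supportive ISEMFs, Vil1 had 7 and 8, Epcam 0 and 5, and Cdx2 0 in both. Of 4 endothelial markers 0 reached an RPKM of 1. Of 4 markers of glia and neurons only S100b was expressed, at 6.69 and 0.116, and Sox10 had 0 reads in both libraries. Their part in the values of the 8 genes was not tested.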

How the data were processed

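Libraries were made from mRNA with the Illumina TruSeq kit and read from a single end over 50 bases. The authors aligned the reads to mm9 with TopHat (TopHat2 2.0.4 in the submitters' processing notes) using Ensembl junctions, allowing 2 mismatches and unique hits only, and counted them with HTSeq 0.5.4p3, leaving out reads not on a single gene. The deposited counts are whole reads per gene. In the deposited RPKM values the authors scaled each count to the combined exon length of the gene and to libraries of 71463423 and 69449374 reads. The deposited DESeq p-values and log2 ratios, and the shorter Wnt pathway table, were not used.

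Log2 ratios were taken from RPKM with a pseudocount of 0.1. Ratios carry 95% Clopper-Pearson intervals and levels exact Poisson intervals. With 1 library per population there was no test, since edgeR's quasi-likelihood test and DESeq2 need replicates. A difference was counted at 2-fold over protein-coding genes whose RPKM reached 1 in at least 1 library. Coordinates, transcripts and sequences were read from GENCODE vM1 on mm9, which holds all 37309 identifiers. Of the 8 genes, 0 have the deposited exon length there, for a reason that was not examined. A coding sequence of Lox is not reported here. The 8 genes and the lists were chosen with earlier results of these data known. Named are the 8 genes, genes overlapping them, genes of the 3 pathway lists (substrates, processing, partners and copper) with the 4 largest absolute log2 ratios of each always included, and the 3 genes nearest in level to Lox and to Plod2. Marker genes were named after their values were seen. Alternatives were other pseudocounts and minimum RPKM values, a 4-fold threshold, an interval wholly past 2-fold, TMM factors, size factors and totals without mitochondrial ribosomal RNA. The log2 ratio, its counting interval and the 2-fold call were tested on simulated Poisson reads without variation between cultures. The other steps were not tested in this way. Software was R 4.3.3 with edgeR 4.0.16 and DESeq2 1.42.0, and Python 3.11.15 with scipy 1.17.1.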

Additional observations from a re-analysis of the deposited data

How the results depend on the processing

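No paired analysis was possible because each population has 1 library. Of 40 values of the 8 log2 ratios under other pseudocounts and scalings, 0 changed sign and 1 changed its call, that of Loxl4 at -0.82 with a pseudocount of 1. With that pseudocount Loxl1 was at 1.29, Loxl3 at 1.09 and Plod1 at 0.45. Scaling moved every ratio by about the same amount, 0.057 with TMM factors, 0.041 with median-of-ratios size factors and 0.114 without mitochondrial ribosomal RNA, which made 13.5% of the supportive and 7.13% of the non-supportive reads on genes. The size factors came out as 1 for both libraries, so that setting compares the reads without any scaling to depth. In that order of settings, Lox came to 0.061, 0.045 and 0.117, Loxl2 to -1.30, -1.32 and -1.25, Plod2 to -0.77, -0.78 and -0.71, the lysyl oxidase sum to -0.33, -0.34 and -0.27 (-0.38 as deposited), and the lysyl hydroxylase sum to -0.51, -0.52 and -0.45 (-0.56 as deposited). Without mitochondrial ribosomal RNA, Loxl1 was at 1.63, Loxl3 at 1.31, Plod1 at 0.67 and Plod3 at 0.38. The length of the longest protein-coding transcript, an alternative chosen after seeing the data, gave -0.33 and -0.49 for the sums. At a 4-fold threshold 0 of the 8 genes were called, beside 603 of the 9110 expressed protein-coding genes. In the lists, 2 of 19 collagen processing genes, 3 of 8 substrate genes and 2 of 9 partner and copper genes were called. Under a minimum RPKM of 5 the count was 3 of 6 genes of the family, beside 837 of 4725 protein-coding genes. With no minimum it was 4 of 8, beside 2639 of 22379. Without a minimum 5 of 14 substrate genes were called, Col24a1 and Col27a1 being added as lower. Depth limits Loxl4 most, with 1732 reads over both libraries.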

Other observations

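By the distance of log2 RPKM over both libraries, the protein-coding genes nearest in level to Lox were Nptn, at an RPKM of 162 in supportive and 153 in non-supportive ISEMFs, Cox4i1 at 139.8 and 150.2, and Fbln2 at 164 and 143. Those nearest to Plod2 were Fkbp3 at 29.3 and 51.7, Tm9sf3 at 30.4 and 50.6, and Ndufa8 at 30.6 and 52.5. The likeness is over 2 libraries.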
